A study of Homo sapiens with 6 samples.

Results

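Stitched clusters are groups of neighbouring open chromatin regions that lie close enough to be joined into 1 locus. They were built here from ATAC-seq peaks of 6 established human lines of T-ALL, T-cell acute lymphoblastic leukaemia, in which immature T cells turn malignant. Overlapping peak intervals of the 6 lines on chromosomes 1 to 22 and X were merged into 40110 regions. The 17359 regions with peaks in 3 or more lines were kept as recurrent. Recurrent regions no more than 12.5 kb apart were joined, and clusters of at least 5 regions were retained. This gave 125 member regions in 22 clusters, or 0.720% of the recurrent and 0.312% of all merged regions. The members were thus chosen by the peak calls themselves, so the number, length and calls of the clusters are a description without a test.

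The lines were CCRF-CEM, DND-41 and HBP-ALL, followed by KOPT-K1, MOLT-4 and TALL-1, and values below keep this order. Each line, with no treatment named in the labels, was grown in RPMI-1640 medium with serum and antibiotics, and had 1 library, so that no error between replicates could be had and a difference between lines cannot be told apart from a difference between libraries. ATAC-seq uses the Tn5 transposase to insert adapters into accessible DNA, and the number of sequenced tags stacked over a position, the pileup, measures its accessibility. The labelled cell type was not checked here against marker genes, because no gene annotation of the build used, hg19, was at hand.

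Accessible regions in the nucleus mark promoters, enhancers, insulators and the promoters of small RNA genes. They crowd together in gene-dense stretches, where short genes with their own promoters follow each other, in tandem gene families such as the replication-dependent histone genes, and in groups of enhancers around genes of cell identity, for which a joining distance of 12.5 kb is widely used. Histone genes are transcribed in the S phase of the cell cycle, and an octamer motif in the promoters of H2B genes is bound by the POU factor OCT-1. JUNB and FOSB belong to the AP-1 family of transcription factors, whose genes respond quickly to signals from the cell surface.

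The names of 88 genes at 19 clusters were set from general knowledge of the hg19 map after the clusters were seen, and they place a gene at or beside a cluster, not at a given region. The other 3 clusters carry no gene name here. Of the 88 genes, 67 had an entry among RefSeq promoters of GRCh38.p14, which reach from 250 bases before to 50 bases after a transcription start. The sequences below show what the promoters of the histone clusters and of the AP-1 clusters hold, and they were picked after motif matches had been seen. Each is printed 5′ to 3′ on the gene's own strand. Capitals mark the octamer ATTTGCAT in the 3 H2B genes, of which H2BC3 and H2BC8 lie on the minus strand and H2BC7 on the plus strand. In JUNB and FOSB, both on the plus strand, capitals mark the TATA box TATAAA.
H2BC3: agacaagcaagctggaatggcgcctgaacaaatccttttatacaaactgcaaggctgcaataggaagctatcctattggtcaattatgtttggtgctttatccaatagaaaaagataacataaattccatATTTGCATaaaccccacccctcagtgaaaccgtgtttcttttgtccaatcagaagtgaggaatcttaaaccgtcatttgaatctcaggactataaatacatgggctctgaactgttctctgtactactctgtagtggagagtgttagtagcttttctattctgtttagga
H2BC7: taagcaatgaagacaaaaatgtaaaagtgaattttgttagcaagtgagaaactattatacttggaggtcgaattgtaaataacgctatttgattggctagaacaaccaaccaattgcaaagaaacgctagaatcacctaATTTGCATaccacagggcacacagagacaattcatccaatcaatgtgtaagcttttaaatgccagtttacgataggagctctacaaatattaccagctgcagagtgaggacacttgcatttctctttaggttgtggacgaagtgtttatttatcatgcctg
H2BC8: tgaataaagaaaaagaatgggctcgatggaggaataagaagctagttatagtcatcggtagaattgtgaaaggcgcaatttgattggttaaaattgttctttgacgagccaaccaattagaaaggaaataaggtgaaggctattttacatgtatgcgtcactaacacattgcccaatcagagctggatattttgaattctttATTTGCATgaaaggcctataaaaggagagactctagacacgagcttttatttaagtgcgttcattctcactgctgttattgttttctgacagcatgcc
JUNB: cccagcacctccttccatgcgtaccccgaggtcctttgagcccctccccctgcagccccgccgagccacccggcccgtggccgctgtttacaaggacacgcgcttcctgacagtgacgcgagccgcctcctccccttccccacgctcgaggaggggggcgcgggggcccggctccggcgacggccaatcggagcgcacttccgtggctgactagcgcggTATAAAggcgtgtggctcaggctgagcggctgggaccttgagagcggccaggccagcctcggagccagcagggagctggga
FOSB: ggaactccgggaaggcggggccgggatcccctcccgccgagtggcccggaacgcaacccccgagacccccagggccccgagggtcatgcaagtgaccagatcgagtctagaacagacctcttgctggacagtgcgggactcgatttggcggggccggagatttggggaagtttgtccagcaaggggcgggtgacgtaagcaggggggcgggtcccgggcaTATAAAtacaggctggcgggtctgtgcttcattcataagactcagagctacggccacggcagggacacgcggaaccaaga

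The octamer begins 120 bases before the start of H2BC3, 111 before that of H2BC7 and 48 before that of H2BC8. The TATA box begins 31 bases before the start of JUNB and 30 before that of FOSB. On either strand, the octamer was found in 6 of 6 promoters of H2A and H2B genes from the histone clusters, in 1 of 9 of their H1, H3 and H4 genes (H3C4) and in 1.77% of all 35116 promoters. These 7 promoters hold it at 4 positions of the genome, because genes that start back to back share a window. TATAAA was found in 10 of 15 histone promoters against 11.5% of all promoters, and CCAAT in 12 of 15 against 34.6%. Of the 52 promoters of named genes outside the histone clusters, JUNB and FOSB were the 2 with TATAAA. The motifs were among 11 searched. The other 8 were CCGGAAG for ETS factors, TGACGTCA for CREB factors, TGACTCA for AP-1, GGGCGG as the GC box, TTTGAA for TCF and LEF factors, AAGATGGCG for YY1, CACGTG as the E-box, and the NRF1 motif. Overlaps between motifs were not removed. The GC box GGGCGG was in 43 of those 52 promoters and in 3 of 15 histone promoters, against 45.0% of all. TTTGAA was in 10 of 15 histone promoters against 15.2% of all, and CCGGAAG in 1 of 15 against 10.3%.

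MicroRNAs lie at 2 of the clusters, and mature sequences from them are given because they show which of these share a seed. MIR142 makes a microRNA abundant in blood cells, and MIR130B and MIR301B are neighbours on chromosome 22. Capitals mark the seed, bases 2 to 8, and the sequences are RefSeq's, from the same build.
hsa-miR-142-3p: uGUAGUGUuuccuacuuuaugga
hsa-miR-142-5p: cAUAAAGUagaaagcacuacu
hsa-miR-130b-3p: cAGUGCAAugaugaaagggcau
hsa-miR-301b-3p: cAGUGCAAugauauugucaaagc
The seed AGUGCAA is common to hsa-miR-130b-3p and hsa-miR-301b-3p. The other strand of the MIR130B hairpin, hsa-miR-130b-5p, is not printed and has the seed CUCUUUC. Both strands of the MIR142 hairpin have other seeds, GUAGUGU and AUAAAGU.

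The clusters were short and sparsely filled. They spanned 20.9 to 52.7 kb with a median of 35.7 kb, and member regions covered 7.51% to 19.8% of a span, with a median of 10.95%. In all, 763 kb were spanned and 90.3 kb covered. There were 14 clusters of 5 regions, 4 of 6, 1 of 7 and 3 of 8. The 103 gaps inside the clusters ran from 59 to 12414 bp with a median of 6445 bp, and the nearest recurrent region outside any cluster lay 12625 bp away. Member regions were 253 to 1789 bp wide with a median of 717 bp, close to the 745 bp of other recurrent regions. The spans also held 7 regions with peaks in only 1 or 2 lines, which are no members.

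**Figure D1:**
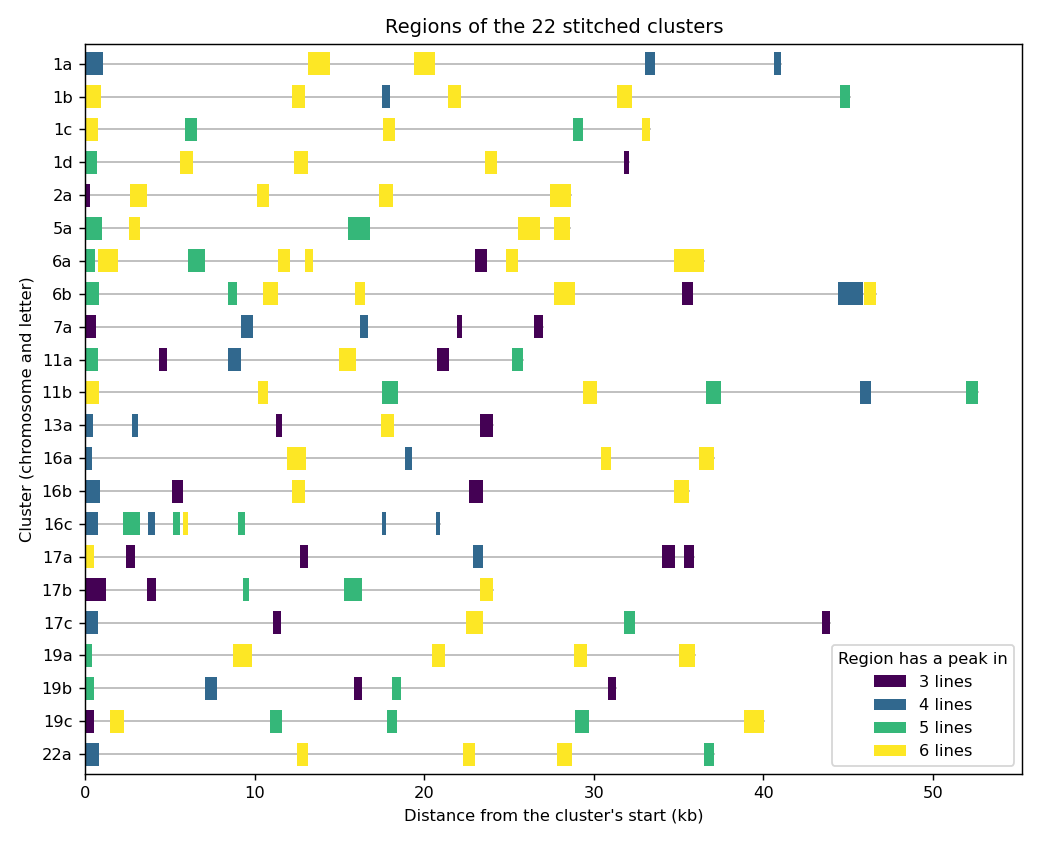
Positions of the 125 member regions along the 22 clusters, each drawn from its own start (x axis, distance in kb; y axis, cluster by chromosome and letter); colour gives the number of lines with a peak. Clusters reach 52.7 kb, and 51 regions had a peak in all 6 lines.

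The clusters fell on 11 chromosomes, and 8 of these held a larger share of the members than of all recurrent regions. Chromosome 1 carried 4 clusters, chromosomes 16, 17 and 19 carried 3 each, chromosomes 6 and 11 carried 2 each, and chromosomes 2, 5, 7, 13 and 22 carried 1 each. Chromosome 16 held 14.4% of the members against 3.44% of the recurrent regions. Of its 18 members, 8 belong to cluster 16c, described below, which lies beside the chromosome's largest stretch without a merged region and has a high local background. Chromosomes 17 and 19 each held 12.8%, against 4.67% and 4.83%. Chromosome 1 held 16.8% against 9.96%, chromosome 6 12.8% against 6.40% and chromosome 11 10.4% against 5.06%. The 5 members on each of chromosomes 2, 5, 7, 13 and 22 made up 4% each, against 7.82%, 5.06%, 5.36%, 2.62% and 1.66%.

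Fewer member regions had a peak in CCRF-CEM than in any other line. A peak was present at 67 of the 125 regions in CCRF-CEM. The other lines had a peak at 101 (KOPT-K1), 106 (DND-41), 107 (HBP-ALL), 111 (MOLT-4) and 114 (TALL-1). CCRF-CEM thus had 53.6% of the members (exact Clopper-Pearson 95% interval 44.5% to 62.6%), where its share of all recurrent regions was 78.5%. TALL-1 had 91.2% (84.8% to 95.5%) against 78.5% of all recurrent regions. These 2 lines, alike over all recurrent regions, stood at opposite ends among the members. DND-41 had 84.8% (77.3% to 90.6%) against 84.9%, and HBP-ALL 85.6% (78.2% to 91.2%) against 86.1%. KOPT-K1 had 80.8% (72.8% to 87.3%) against 85.5%, and MOLT-4 88.8% (81.9% to 93.7%) against 87.3%. For those 4 lines the share over all recurrent regions lay within the interval of the members' share. The intervals cover counting error only, and neighbouring regions of a cluster are not independent.

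The members divided unevenly by the number of lines. Of the 125 regions, 51 had a peak in every line, 28 in 5, 22 in 4 and 24 in 3. The share in every line was 40.8% (32.1% to 49.9%), against 52.2% of all recurrent regions. CCRF-CEM alone lacked a peak at 19 members, or 15.2%, against 5.59% of all recurrent regions. KOPT-K1 alone lacked one at 4 (3.2% against 1.6%), TALL-1 alone at 3 (2.4% against 3.63%) and DND-41 alone at 2 (1.6% against 1.27%). HBP-ALL and MOLT-4 alone lacked one at 0 members, against 1.71% and 1.3%. The most frequent patterns were thus all lines and all lines but CCRF-CEM, and the third, with 6 regions, was HBP-ALL, MOLT-4 and TALL-1. MOLT-4 and TALL-1 had the most members in common, 102 of the 123 with a peak in either, a share of 0.829 against 0.744 over all recurrent regions. The 5 pairs with CCRF-CEM ranged from 0.534 to 0.570, against 0.677 to 0.734.

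Since a line's own calls helped to choose the members, clusters were also built for each line from the other 5 lists, with a peak still required in 3 of them. CCRF-CEM then had a peak at 50% of 110 members (40.3% to 59.7%) against 76.4% of the regions recurrent in the other lists. TALL-1 had a peak at 95.6% of 68 members (87.6% to 99.1%) against 76.9%. DND-41 stood at 85.7% of 91 members against 83.5%, HBP-ALL at 87.8% of 82 against 84.5%, KOPT-K1 at 79.2% of 96 against 83.9% and MOLT-4 at 89.9% of 79 against 85.8%. The lowest and the highest share were again those of CCRF-CEM and TALL-1, with a line's own calls left out of the choice. Each share comes from a different set of members, chosen by the calls of the other lines. The order of the lines over these sets is thus a description as well.

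**Figure D2:**
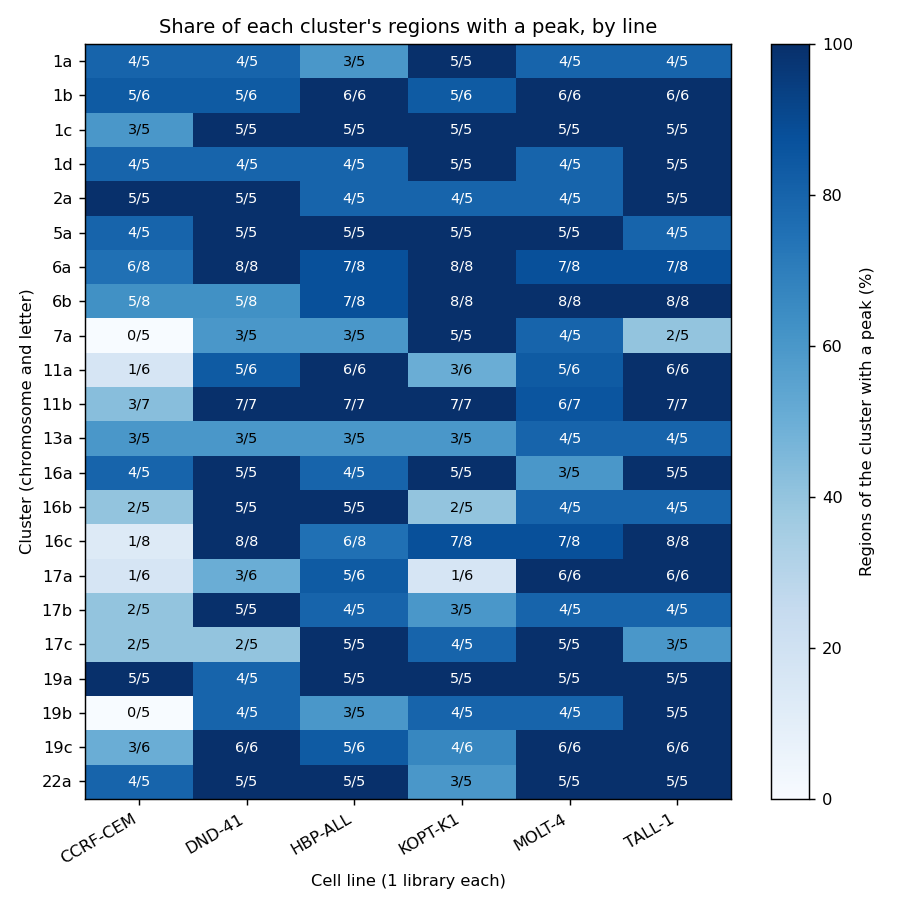
Share of each cluster's regions with a peak (colour, %) by cluster (y axis) and cell line (x axis, 1 library each). CCRF-CEM is at 0% in clusters 7a and 19b, and 14 clusters are complete in TALL-1.

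By cluster, TALL-1 had a peak at every region in 14 clusters, DND-41 in 11, KOPT-K1 in 10, HBP-ALL and MOLT-4 in 9 each and CCRF-CEM in 2. CCRF-CEM was below every other line in 9 clusters and lowest or tied for lowest in 17. The only clusters without any peak in a line were 7a and 19b, both in CCRF-CEM. Chromosomes 17 and 19, where CCRF-CEM was low outside the clusters too, hold 32 members. CCRF-CEM had a peak at 13 of them, 40.6%, against 63.8% of other recurrent regions there. On the remaining chromosomes it had a peak at 54 of 93 members, 58.1%, against 80.2%. TALL-1 had a peak at 29 of the 32 members on chromosomes 17 and 19, 90.6%, against 91.2% of other recurrent regions there. Its higher share among members thus did not appear on chromosomes 17 and 19. On the remaining chromosomes TALL-1 had a peak at 85 of 93 members, 91.4%, against 77.1%. Chromosome 16, among these, had 17 of 18 in TALL-1, 94.4%, against 89.6%.

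Pileups in the following clusters are tags as recovered, not corrected for the depth of a library. Of the 51 members called in every line, CCRF-CEM was lowest or tied for lowest at 42 by tags, and lowest at 32 once each line was centred on its own median.

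Both histone clusters on chromosome 6 held 8 regions, and CCRF-CEM had the fewest peaks in 6a and, level with DND-41, in 6b. Cluster 6a at chr6:26020574-26057087 (36.5 kb) lies at genes for histones H4, H3, H2A, H2B and H1, among them H4C1, H3C2, H2BC3 and H1-2. Its regions with a peak numbered 6, 8, 7, 8, 7 and 7 in the 6 lines. It was the most densely filled cluster, with 19.8% covered, and 5 of its 8 regions had a peak in every line. At the widest region, 26055299-26057087, pileups were 23, 30, 26, 42, 29 and 31. KOPT-K1 had the most tags there and CCRF-CEM the fewest; with the lines' medians centred KOPT-K1 was still highest, at 0.52 on the log2 scale, and HBP-ALL, at −0.21, was below CCRF-CEM, at −0.16. At 26045366-26046096 the lines split into DND-41, KOPT-K1 and TALL-1 with 31, 42 and 46 tags, and CCRF-CEM, HBP-ALL and MOLT-4 with 8, 14 and 16. The neighbouring region 26043586-26044284 divided the lines alike: it had a peak in DND-41, KOPT-K1 and TALL-1, at 32, 42 and 42 tags, and in no other line. At 26045366-26046096 the local background split in the same way, at 6.51, 7.27 and 7.78 tags against 0.90, 1.89 and 2.05. Fold over background did not split the lines there, at 4.26, 5.20 and 5.36 against 4.73, 5.19 and 5.57.

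Cluster 6b at chr6:26188732-26235365 (46.6 kb) lies at a further set of histone genes, among them H4C4, H2BC7, H2BC8 and H1-3. Of its 8 regions, 5, 5, 7, 8, 8 and 8 had a peak in the 6 lines. At 26199231-26200086 pileups were 22, 39, 48, 36, 53 and 50, and at 26216369-26217614 they were 28, 47, 36, 31, 22 and 57. CCRF-CEM was lowest at the first of these and MOLT-4 at the second. At 26223907-26224609 only KOPT-K1, MOLT-4 and TALL-1 had a peak, with 15, 21 and 27 tags.

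Cluster 7a at chr7:142196997-142223982 (27.0 kb) lies among variable segments of the T-cell receptor beta locus, such as TRBV11-2, TRBV6-5 and TRBV7-4. T cells join 1 of these segments to the rest of the gene by deleting the DNA between them. Of its 5 regions, 0, 3, 3, 5, 4 and 2 had a peak in the 6 lines, and none had a peak in every line. KOPT-K1 was the only line with all 5, at 15, 27, 17, 18 and 16 tags from left to right. MOLT-4 had 16, 23, 19 and 13 at 4 of them, and DND-41, with 10, 13 and 9, and HBP-ALL, with 13, 13 and 8, had 3 each. TALL-1 had 17 and 15 at 2. All pileups of the cluster thus lay between 8 and 27 tags.

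The AP-1 clusters on chromosome 19 differed in their calls in CCRF-CEM. Cluster 19b at chr19:12886265-12917545 (31.3 kb) lies at HOOK2, JUNB and PRDX2, a peroxidase gene. Its 5 regions had 0, 4, 3, 4, 4 and 5 peaks in the 6 lines. At 12904336-12904869 pileups were 33, 34, 30, 33 and 56 in the 5 lines other than CCRF-CEM. TALL-1, with 31, 32, 49, 56 and 13 tags from left to right, was the only line with a peak at all 5. Cluster 19c at chr19:45970840-46010907 (40.1 kb) lies at FOSB, RTN2, PPM1N and VASP, a regulator of the actin skeleton. Its 6 regions had 3, 6, 5, 4, 6 and 6 peaks. At 45972279-45973095 pileups were 11, 20, 20, 19, 40 and 51, and at 46009717-46010907 they were 14, 28, 29, 24, 38 and 47. At both, MOLT-4 and TALL-1 were the highest and CCRF-CEM the lowest. The third cluster of the chromosome, 19a at chr19:1240196-1276145 (36.0 kb), lies at ATP5F1D, a subunit of the ATP synthase, MIDN and CIRBP, a cold-inducible RNA-binding protein. It was almost complete, with 5, 4, 5, 5, 5 and 5 of 5 regions. At 1248893-1250003 pileups were 19, 54, 59, 31, 78 and 57, so that CCRF-CEM and KOPT-K1 were the lowest.

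Chromosome 17 carried 3 clusters that were incomplete in CCRF-CEM. Cluster 17a at chr17:8090781-8126688 (35.9 kb) lies at AURKB, a kinase of chromosome segregation, at CTC1, which acts at telomeres, at BORCS6 and LINC00324 and among transfer RNA genes. Its 6 regions had 1, 3, 5, 1, 6 and 6 peaks. CCRF-CEM and KOPT-K1 shared their only peak, at 8090781-8091268, where pileups were 11, 21, 23, 19, 30 and 36. The 4 regions with a peak in just 3 lines were all called in MOLT-4 and TALL-1, at 11 to 22 and 20 to 38 tags. Cluster 17b at chr17:56406021-56430055 (24.0 kb) lies at MIR142 and SUPT4H1, which encodes a transcription elongation factor. It had 2, 5, 4, 3, 4 and 4 of 5 regions. Neighbouring regions there were called in different lines. At 56406021-56407243, DND-41, HBP-ALL and KOPT-K1 had 30, 48 and 55 tags and no other line a peak. At 56409687-56410161, DND-41, MOLT-4 and TALL-1 had 31, 77 and 42. DND-41 alone had peaks at both, with a −log10 p of 6.09 and 5.21, where the lists end just above 5. The local background was high at both regions, at 11.2 to 18.4 and 13.0 to 21.2 tags in the lines with a peak. The fold over it was low, at 2.55 to 2.89 and 2.29 to 3.51. The part of the caller's limit in the missing calls was not tested. Cluster 17c at chr17:73828728-73872671 (43.9 kb) lies at UNC13D, needed for the release of cytotoxic granules, and at WBP2 and TRIM47. It had 2, 2, 5, 4, 5 and 3 of 5 regions. Its strongest region, 73851209-73852213, had 20, 43, 46, 61, 74 and 65 tags, lowest in CCRF-CEM and highest in MOLT-4.

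Both clusters of chromosome 11 were also sparse in CCRF-CEM. Cluster 11b at chr11:67158859-67211513 was the longest at 52.7 kb. It lies at RAD9A, a DNA damage checkpoint gene, PPP1CA, a protein phosphatase, PTPRCAP, which encodes a partner of the CD45 phosphatase of lymphocytes, and CORO1B. Its 7 regions had 3, 7, 7, 7, 6 and 7 peaks. At 67188242-67189050 pileups were 17, 36, 41, 23, 54 and 51. Cluster 11a at chr11:63993380-64019183 (25.8 kb) lies at 7 named genes from TRPT1 to PLCB3, among them VEGFB, a vascular growth factor, and FKBP2. Its 6 regions had 1, 5, 6, 3, 5 and 6 peaks. The 1 region called in all lines, 64008319-64009336, had 31, 52, 53, 51, 67 and 85 tags, lowest in CCRF-CEM and highest in TALL-1.

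In the 4 clusters of chromosome 1 and the 1 of chromosome 2, CCRF-CEM had a peak at 3 or more of the regions of each. Cluster 1a at chr1:935233-976293 (41.1 kb), at HES4, the interferon-induced ISG15 and AGRN, had 4, 4, 3, 5, 4 and 4 of 5 regions. Its first region, 935233-936258, had 47, 28, 22 and 51 tags in CCRF-CEM, HBP-ALL, KOPT-K1 and TALL-1 and no peak in DND-41 or MOLT-4. There CCRF-CEM was the second highest by tags. By fold over the local background it was the highest, at 6.95 against 4.02 in HBP-ALL, 4.61 in KOPT-K1 and 4.43 in TALL-1. Cluster 1b at chr1:153918360-153963475 (45.1 kb), at 7 genes from DENND4B to the ribosomal protein gene RPS27, had 5, 5, 6, 5, 6 and 6 of 6 regions. At 153930546-153931327 its pileups were 23, 39, 45, 34, 26 and 37, lowest in CCRF-CEM. Cluster 1c at chr1:155214164-155247488 (33.3 kb), at SCAMP3, the splicing kinase CLK2 and HCN3, had 3 of 5 regions in CCRF-CEM and 5 in every other line. Cluster 1d at chr1:161123383-161155459 (32.1 kb), at UFC1, USP21, PPOX, an enzyme of haem synthesis, and B4GALT3, had 4, 4, 4, 5, 4 and 5 of 5. Cluster 2a at chr2:74681978-74710645 (28.7 kb), at WBP1, the glycoprotein-processing MOGS, MRPL53, CCDC142 and TTC31, had 5, 5, 4, 4, 4 and 5 of 5 and was 1 of the 2 complete in CCRF-CEM, with 19a. Its strongest region, 74684630-74685640, had 56, 89, 88, 56, 69 and 73 tags. CCRF-CEM and KOPT-K1 had the fewest tags there, but with the lines' medians centred KOPT-K1 was lowest, at −0.32 on the log2 scale, followed by TALL-1 at −0.17 and CCRF-CEM at −0.13.

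Cluster 22a at chr22:21983683-22020796 (37.1 kb) lies at YDJC, CCDC116, SDF2L1, a protein of the endoplasmic reticulum, and the microRNA genes MIR301B and MIR130B shown above. It had 4, 5, 5, 3, 5 and 5 of 5 regions. At 22005987-22006694 pileups were 11, 28, 24, 27, 37 and 47, lowest in CCRF-CEM and highest in TALL-1. Cluster 16a at chr16:2551295-2588374 (37.1 kb) lies at ATP6V0C, a subunit of the proton pump of vesicles, AMDHD2, CEMP1 and PDPK1, a kinase of the phosphoinositide pathway. It had 4, 5, 4, 5, 3 and 5 of 5 regions. At 2587505-2588374 pileups were 24, 50, 22, 26, 50 and 59. DND-41, MOLT-4 and TALL-1 thus stood apart from the other lines there.

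The 3 clusters without a gene name differed from each other. Cluster 5a at chr5:42992124-43020712 (28.6 kb) had 4, 5, 5, 5, 5 and 4 of 5 regions. At 43017624-43018929 CCRF-CEM had the highest pileup, 50, against 48, 23, 33, 31 and 41, and at 43019801-43020712 it again had the highest, 39 against 22, 25, 26, 18 and 33. Cluster 13a at chr13:30945804-30969878 (24.1 kb) had 3, 3, 3, 3, 4 and 4 of 5 regions and was the 1 cluster complete in no line. Its 1 region with a peak in every line, 30963242-30964020, had 14, 18, 17, 10, 17 and 31 tags, with TALL-1 highest.

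Cluster 16c at chr16:46386092-46407040 was the shortest, at 20.9 kb, and held 8 regions with a median gap of 1494 bp. It begins directly after the largest stretch of chromosome 16 without a merged region, 35033627-46386091. Its regions had 1, 8, 6, 7, 7 and 8 peaks. At 46391868-46392164, the only region called in every line, pileups were 30, 153, 79, 115, 76 and 206, the highest of any member in DND-41, KOPT-K1 and TALL-1. The local background that the peak caller set against the pileup was high as well, with medians over the called regions of 3.90, 19.6, 9.46, 12.2, 12.9 and 25.02 tags. The fold over background at that region was 6.33, 6.05, 7.24, 6.90, 5.15 and 6.43, so that the lines differed less by fold than by pileup. The part of the high background in these pileups was not tested. Without this cluster CCRF-CEM had a peak at 56.4% of the remaining 117 members.

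Cluster 16b at chr16:30406304-30441890 (35.6 kb), at the zinc finger genes ZNF48 and ZNF771 and at DCTPP1, a nucleotide-cleaning enzyme, had its highest pileups in HBP-ALL. It had 2, 5, 5, 2, 4 and 4 of 5 regions. From left to right HBP-ALL had 79, 40, 122, 110 and 166 tags. DND-41 had 14, 15, 22, 28 and 40, and the other lines' peaks ranged from 13 to 52. By tags HBP-ALL was above every other line at each of the 5 regions. Its local background was high as well, with a median of 10.9 tags against 0.975 to 3.76 in the other lines. By fold over background it stood apart less: it was highest at 4 of the 5 regions, with 11.2 against 10.7 in MOLT-4 at 30441022-30441890, and lowest of 3 lines at 30411421-30412093, with 3.65 against 4.54 in DND-41 and 5.08 in TALL-1. Relative pileup is the log2 of a line's pileup less the mean of the 6 lines, with each line centred on its median over the 9045 regions with a recovered pileup in every line. HBP-ALL reached a relative pileup of 1 or more at 2 of the 51 members called in every line, both in cluster 16b, and 0.597% of the 9045 regions did so.

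The high HBP-ALL values were not limited to the cluster. Along chromosome 16, 14 successive regions with a pileup in every line, from 30389051 to 30886996 (498 kb), had a relative HBP-ALL pileup of at least 1, with a median of 1.59 and a range of 1.10 to 2.02. Only 2 of the 14 belong to the cluster, and the other 12 had a median of 1.58. The run had a sharper edge on its left than on its right. The nearest such region before it was at −0.38, and the 10 before it had a median of −0.37. The 5 regions directly after it, from 30933600 to 31106552, were still at 0.55 to 0.98, below the limit of 1 but above 0, and the next 5 lay between −0.44 and −0.24. Over chromosome 16 the HBP-ALL median was −0.05. Of the 346 such regions of the chromosome, 28 reached 1, the 14 of the run among them, so the limit was also passed elsewhere on it. The run and its limit were chosen after the cluster's values were seen.

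**Figure D3:**
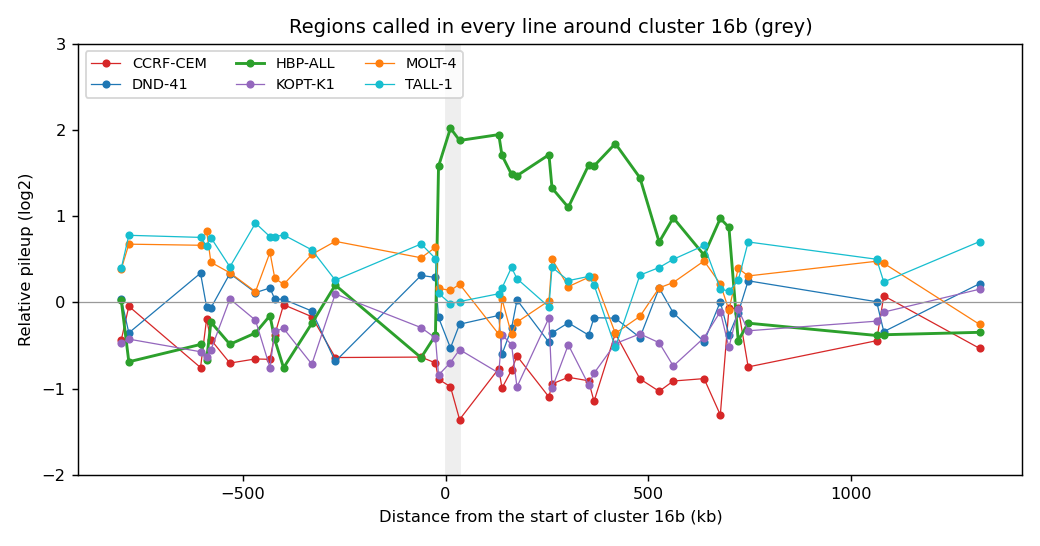
Relative pileup (y axis, log2) of regions called in every line, by distance from the start of cluster 16b (x axis, kb; cluster in grey), with 1 colour for each line. HBP-ALL stays at 1.10 to 2.02 over 14 successive regions and is at −0.38 at the nearest region before them; the 5 regions directly after them are at 0.55 to 0.98 and the next at −0.44.

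Member regions called in every line were lower than other such regions, and most so in CCRF-CEM. The median pileup at the 51 members was 18, 31, 32, 28, 35 and 41 tags in the 6 lines, and at the 8994 other regions it was 32, 40, 39, 37, 36 and 44. On the log2 scale the ratio of these medians was lowest in CCRF-CEM, at −0.83. It was −0.40 in KOPT-K1, −0.37 in DND-41, −0.29 in HBP-ALL, −0.10 in TALL-1 and −0.04 in MOLT-4. All 6 were below 0, with MOLT-4 nearest to it. The median fold over local background was lower at members with a peak in each of the 6 lines, at 5.24 to 6.67 against 7.34 to 8.97 at other recurrent regions.

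The median relative pileup of the 51 members was −0.52 in CCRF-CEM and −0.12 in KOPT-K1, near 0 in DND-41 (−0.02) and HBP-ALL (0.06), and 0.18 in MOLT-4 and 0.28 in TALL-1. CCRF-CEM was below 0 at 49 of the 51, and the 2 exceptions, 0.66 and 0.77, were the regions of cluster 5a given above. It was at least 1 below 0 at 6 of the 51, in clusters 6a, 16b, 16c, 17c, 19a and 22a, and 3.24% of all 9045 regions were. No member was 1 or more above 0 in CCRF-CEM (3.49% of all), DND-41 (0.177%), KOPT-K1 (0.376%), MOLT-4 (0.387%) or TALL-1 (0.929%). Likewise none was 1 or more below 0 in TALL-1 (2.34% of all), MOLT-4 (1.05%), KOPT-K1 (0.796%), HBP-ALL (1.09%) or DND-41 (0.531%). Only 4 clusters other than 6a had 4 or more regions with a pileup in every line. Among these 5 the CCRF-CEM median ran from −0.58 in cluster 1b to −0.24 in cluster 2a, that of MOLT-4 from −0.09 in 2a to 0.69 in 19a, and that of KOPT-K1 from −0.53 in 19a to 0.24 in 6a. HBP-ALL ran from −0.11 in 6a to 0.31 in 19a, DND-41 from −0.01 in 19a to 0.28 in 6a and TALL-1 from −0.15 in 6a to 0.23 in 1b. The histone cluster 6a and cluster 19a were thus at opposite ends in KOPT-K1, in DND-41 and in HBP-ALL.

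**Figure D4:**
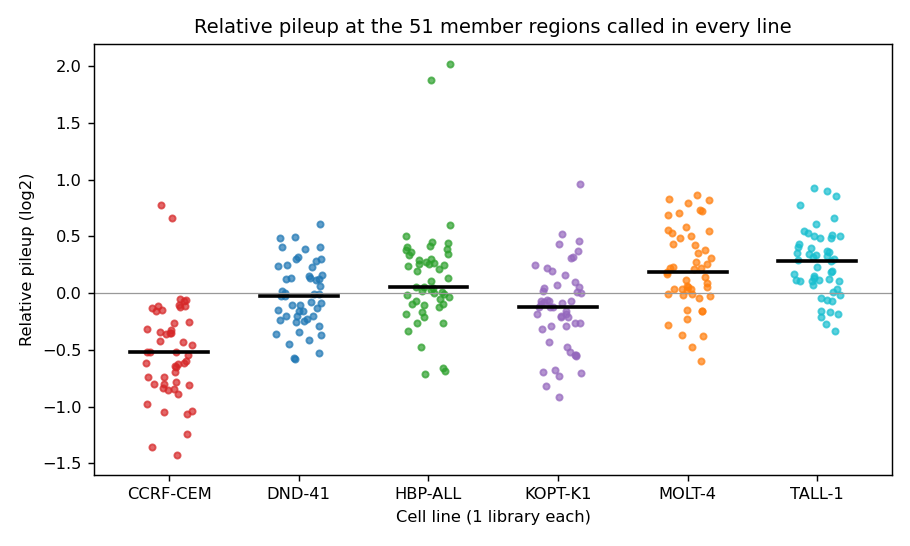
Relative pileup (y axis, log2) of the 51 member regions called in every line, 1 point for each region, by cell line (x axis, 1 library each), with the median marked. The medians run from −0.52 in CCRF-CEM to 0.28 in TALL-1.

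CCRF-CEM had the lowest depth that the lists show, although its list was the longest, with 22367 intervals against 16507 to 22055. The depth of each library, taken from the lowest background in its list and relative to CCRF-CEM, was 1.35 in MOLT-4, 1.55 in KOPT-K1, 1.70 in DND-41, 1.93 in HBP-ALL and 2.096 in TALL-1. The local background around members with a peak was a median of 1.73 tags in CCRF-CEM against 2.09 at other recurrent regions, and in the other lines it was higher at members, at 3.57 to 5.53 against 2.77 to 3.73. At the members that CCRF-CEM lacked, the median pileup of the lines with a peak was 24.75 tags, against 31 at the members it had. Outside the clusters these medians were 18.5 and 31. The part of depth in the CCRF-CEM shares was not tested.

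Over classes by the number of regions joined, the CCRF-CEM share fell, except for a small step up from pairs to groups of 3. The TALL-1 share rose over the classes, of which the last pools clusters of 5 to 8 regions. In clusters of 5 alone it was 85.7%, below the groups of 4. Recurrent regions were divided into 12983 that stood alone, 3212 in pairs, 795 in groups of 3, 244 in groups of 4 and the 125 members. In CCRF-CEM the share with a peak was 79.2%, 76.9%, 77.5%, 72.5% and 53.6% over these classes. In TALL-1 it was 77.3%, 81.5%, 82.0%, 88.1% and 91.2%. Among regions called in every line the median relative pileup of CCRF-CEM was 0.03, −0.05, −0.09, −0.32 and −0.52, and that of TALL-1 −0.02, 0.03, 0.05, 0.19 and 0.28. In MOLT-4 it was −0.02, 0.03, 0.07, 0.17 and 0.18, while its share with a peak kept between 85.3% and 88.8%. Relative pileup is taken against the mean of the 6 lines, so a fall in 1 line raises the others by construction. The median tags at these regions were 33, 30, 29, 22 and 18 in CCRF-CEM. They were 45, 43, 42, 45 and 41 in TALL-1 and 36, 36, 36, 38.5 and 35 in MOLT-4, without a rise over the classes. Each value comes from 1 library, and the classes were drawn up after the members' shares were known.

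**Figure D5:**
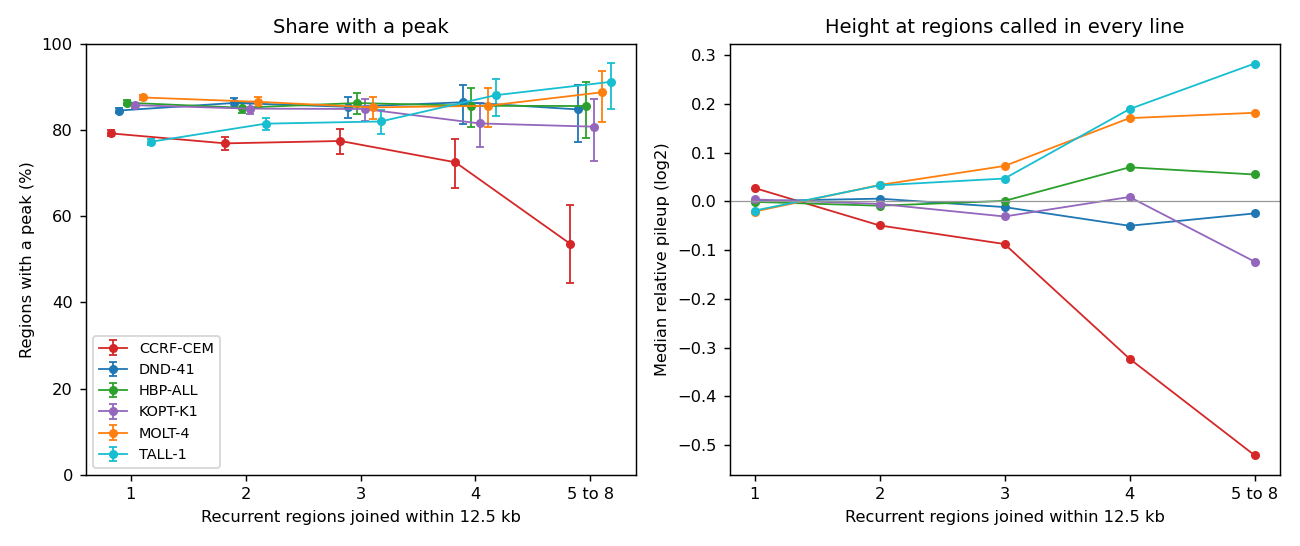
Share of recurrent regions with a peak (left, %) and median relative pileup at regions called in every line (right, log2) by the number of recurrent regions joined (x axis), with 1 line for each cell line. CCRF-CEM ends at 53.6% and −0.52 in clusters of 5 to 8 regions, and TALL-1 at 91.2% and 0.28.

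At the threshold of 5 regions, 14 clusters lay just inside, with a median length of 32.7 kb, and 61 groups of 4 regions just outside, with a median of 24.0 kb. CCRF-CEM had a peak at 60% of the regions in the former and 72.5% in the latter, and TALL-1 at 85.7% and 88.1%. A gap of at most 25000 bp separated a cluster from its next recurrent region on 21 of the 44 sides.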

How the data were processed

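Accessible DNA was measured by ATAC-seq in 6 T-ALL lines, 1 library each, as paired ends per the labels. Per the submitters' processing notes, Bowtie2, Picard, SAMtools and MACS2 2.1.1.2016030 were used with build hg19. Settings and a Tn5 read shift are not stated in these sources. The authors deposited 1 narrowPeak list for each line, without read counts. The deposited lists give, for each summit, a score, a fold enrichment (ratio) over local background, a −log10 p-value and a −log10 q-value. The lowest −log10 p in the authors' lists lies just above 5.

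Intervals were merged where they overlapped by at least 1 bp, and the strongest summit of a line in a region gave its values. Pileups t over backgrounds c were recovered from the authors' fold, as (t + 1) / (c + 1), and −log10 p, as a Poisson tail above t, within 0.001 of the −log10 p and for t up to 800. This succeeded for 99.96% to 99.99% of intervals per library. Joining and recovery were tested on simulated data, where 100% of simulated pileups from 6 to 119 were right. Peaks stronger than that were not covered by the simulation. Relative depth assumes that the smallest interval width is the caller's extension length. Total reads are unknown.

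Shares have exact Clopper-Pearson 95% intervals, and with 1 library per line no difference between lines was tested. Dixon's gap ratio over the lines was used only to point out values. Clusters were named in the text by a rule: the 10 with the most regions, the 5 longest of the rest, for each line the 2 with the lowest share, and those with the highest and lowest relative pileup among clusters with at least 4 shared regions. The remaining clusters are also given, since all 22 were described. The members and lists were chosen with earlier results of these data known. Added after seeing the data were the classes by number joined, the members chosen from the other 5 lists, the run on chromosome 16, the gene names, the motifs and promoters shown, and the alternatives without cluster 16c and without chromosomes 17 and 19. Planned gene lists and cell type markers were not placed, as no hg19 annotation was used here. RefSeq tables of GRCh38.p14 gave names and sequences only. Alternatives were other joining distances, 4 lines, a −log10 p of 10, equal numbers of peaks, a 50% overlap and leaving out each line. Software was pandas 2.3.3, matplotlib 3.10.9, scipy 1.17.1, numpy 2.4.6 and Python 3.11.15.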

Additional observations from a re-analysis of the deposited data

Results flagged for a closer look

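Dixon's gap ratio, the distance of the lowest or highest line from its neighbour divided by the whole range, was taken over 6 lines for 8 sets of values, with Dixon's 95% critical value as the limit. The lines are not replicates of a group, and chance passes the limit in about 1 of 20 sets, so the ratio points out values and tests nothing. The peak calls also chose the members, which makes the share a description. In 2 of the 8 sets the ratio of CCRF-CEM was above the limit. Its share of member regions with a peak, 53.6%, had a gap ratio of 0.723. Its median relative pileup in cluster 1b, −0.58 on the log2 scale over the 4 regions called in every line, had a gap ratio of 0.705.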

How the results depend on the processing

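No paired analysis was possible because each line has 1 library. Over the alternatives, 75 results stayed close to the value reported, 43 moved and 8 turned direction. A number of clusters or members, or a log2 pileup ratio, counted as moved past 1.5-fold. A share counted as moved outside the 95% interval of the share reported. These limits are wide: 15 clusters in place of 22, under equal numbers of the strongest intervals, still counted as close. CCRF-CEM had the lowest share of members under all 14 alternatives that include it, and of the 14 that include TALL-1, it had the highest alone under 12, tied with other lines at 6.25 kb and was below MOLT-4 at 25000 bp. The number of clusters and members rests on the joining distance. At 25000 bp there were 163 clusters and 1032 members, CCRF-CEM had a peak at 70.8%, and the log2 ratio of pileups, members over others, turned to 0.040 in MOLT-4 and 0.032 in TALL-1. At 6.25 kb 3 clusters and 17 members were left, with 35.3% in CCRF-CEM and 94.1% in each of DND-41, HBP-ALL, MOLT-4 and TALL-1. With just 5 members in every line the ratio was then −0.047 in CCRF-CEM and turned to 0.44 in HBP-ALL, 0.35 in MOLT-4, 0.32 in KOPT-K1 and 0.23 in DND-41. With peaks required in at least 4 lines there were 12 clusters and 68 members, at 67.6% in CCRF-CEM, 92.6% in KOPT-K1 and in HBP-ALL, 94.1% in DND-41 and 95.6% in TALL-1. A −log10 p of at least 10 left 6 clusters and 35 members, and over 12 members in every line the ratio turned to 0.14 in HBP-ALL and 0.10 in MOLT-4. Equal numbers of the strongest intervals gave 39.1% in CCRF-CEM and 78.2% in HBP-ALL. This setting cuts every list to the length of the shortest, that of TALL-1. By construction it thus takes the most intervals from CCRF-CEM and HBP-ALL, whose lists are the longest. Chosen from the other 5 lists, with a different set of members for each line, members had a TALL-1 peak at 95.6%. Leaving out 1 line at a time gave 12 to 19 clusters and 68 to 110 members, with shares of 60.4% to 68.3% in CCRF-CEM, 80.9% to 92.6% in KOPT-K1, 85.5% to 94.9% in DND-41, 87.3% to 92.6% in HBP-ALL, 90.0% to 92.6% in MOLT-4 and 90.9% to 97.5% in TALL-1. The lowest counts, 12 and 68, were without TALL-1, and without HBP-ALL or MOLT-4 there were 14 clusters, with 82 and 79 members. A line left out lowers the number of lists that can reach 3, by construction. The joining distance does not change which regions are recurrent, so the CCRF-CEM share of 78.5% over all of them applies there too. For 4 lines, a stricter −log10 p, equal numbers, a 50% overlap or a line left out, shares over all recurrent regions were not taken. How far the members' shares lay from them is therefore not known under those settings. Other causes were not tested. The lists give no read totals, and the part of depth in the shares was not tested.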
